A study of Homo sapiens with 6 samples.

Results

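The genes described here are 49 genes of DNA replication and S phase, taken by their symbol from an expression table of 23858 genes. They cover the factors that load and start the replicative helicase, the DNA polymerases, the clamp and its loader, and deoxynucleotide enzymes. E2F transcription factors and chromatin factors that act behind the fork are also among them. SLBP, which binds histone messenger RNA, is counted with the chromatin genes. All 49 were listed once in the table. Expression was measured by RNA sequencing of total RNA depleted of ribosomal RNA in 3 libraries of NB4 cells treated with arsenic trioxide for 6 h and 3 libraries of untreated control NB4 cells. NB4 cells come from a human promyelocytic leukaemia and express the fusion protein PML-RARA, which arsenic trioxide binds and sends to degradation. Both groups are the same line in RPMI medium with fetal bovine serum, and the sources used here give no dose. Nothing says that the replicates were separate cultures, so p-values cover the spread between libraries, which may be technical.

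Replication starts when the origin recognition complex, CDC6 and CDT1 load a ring of MCM2 to MCM7 on DNA in G1, a step called licensing, which geminin blocks once S phase has begun. The kinase of CDC7 and DBF4 and the factors CDC45 and GINS then turn the ring into a moving helicase, and polymerases alpha, delta and epsilon copy the strands behind it with the help of the clamp PCNA. Many of these genes are targets of E2F factors, whose activity RB proteins restrain before S phase.

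The library totals recovered from the deposited values were 22300255, 21185966 and 21976255 reads in arsenic trioxide replicates 1, 2 and 3, and 20201121, 19361333 and 22609019 reads in control replicates 1, 2 and 3. Each of the 49 genes held between 416 and 12182 reads in every library, so none was near the counting floor of 3 reads. Of 7 promyelocyte markers 5 were listed, and their summed level was 666 to 1006 RPKM in treated libraries and 998 to 1389 RPKM in control libraries. RPKM is the count of reads scaled by the exon length of the gene and by the library total. Comparisons between genes therefore rest on the annotated exons, and those between libraries on scaling by the library total. Of 19 markers of T, B, erythroid, fibroblast and epithelial cells 8 were listed, with sums of 45.7 to 53.0 RPKM in treated libraries and 56.7 to 63.2 RPKM in control libraries, and the part of either list in the results was not tested. CD4 made up most of the second sum, at 29.4 RPKM in treated cells and 39.5 RPKM in control cells on average. The promyelocyte markers ELANE and KIT, and the remaining markers of the other cell types, were not analysed here.

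The replication genes moved in both directions after arsenic trioxide. MCM7, a subunit of the helicase ring, fell to 58.0 ± 5.81 RPKM in treated cells, against 120 ± 2.81 RPKM in control cells (SD, n = 3 each), which is 48.5% of the control level. UHRF1, MCM3, FEN1 and GMNN fell to between 64.8% and 68.4% of control. ORC1, the largest subunit of the origin recognition complex, rose to 59.8 ± 5.05 RPKM in treated cells, against 39.0 ± 2.58 RPKM in control cells, and PRIM2, E2F3, ORC6 and MCM5 rose to between 130% and 141% of control. With limma-trend on log2 of RPKM + 1 over 16803 genes, 7 of the 49 members rose and 11 fell (Benjamini-Hochberg adjusted p under 0.05), together 36.7%, and 31 did not pass. Over all tested genes the share called was 25.4%, with 12.0% higher and 13.4% lower. The members were expressed above most genes, at a median of 25.3 RPKM where all tested genes had 5.72 RPKM, and among the 7299 tested genes within the members' range of mean level, 6.97 to 162 RPKM, the share called was 34.7%, with 14.7% higher and 20.0% lower. The members' share was thus near that of genes within this range. The range does not fully match level, since the members' median lay at percentile 88.0 of all tested genes and their lowest at percentile 55.9. The median log2 fold change was -0.06 over the 49 members and -0.0033 over all tested genes. In bulk libraries such as these, fewer cells in S phase and less RNA per cell cannot be told apart.

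**Figure D1:**
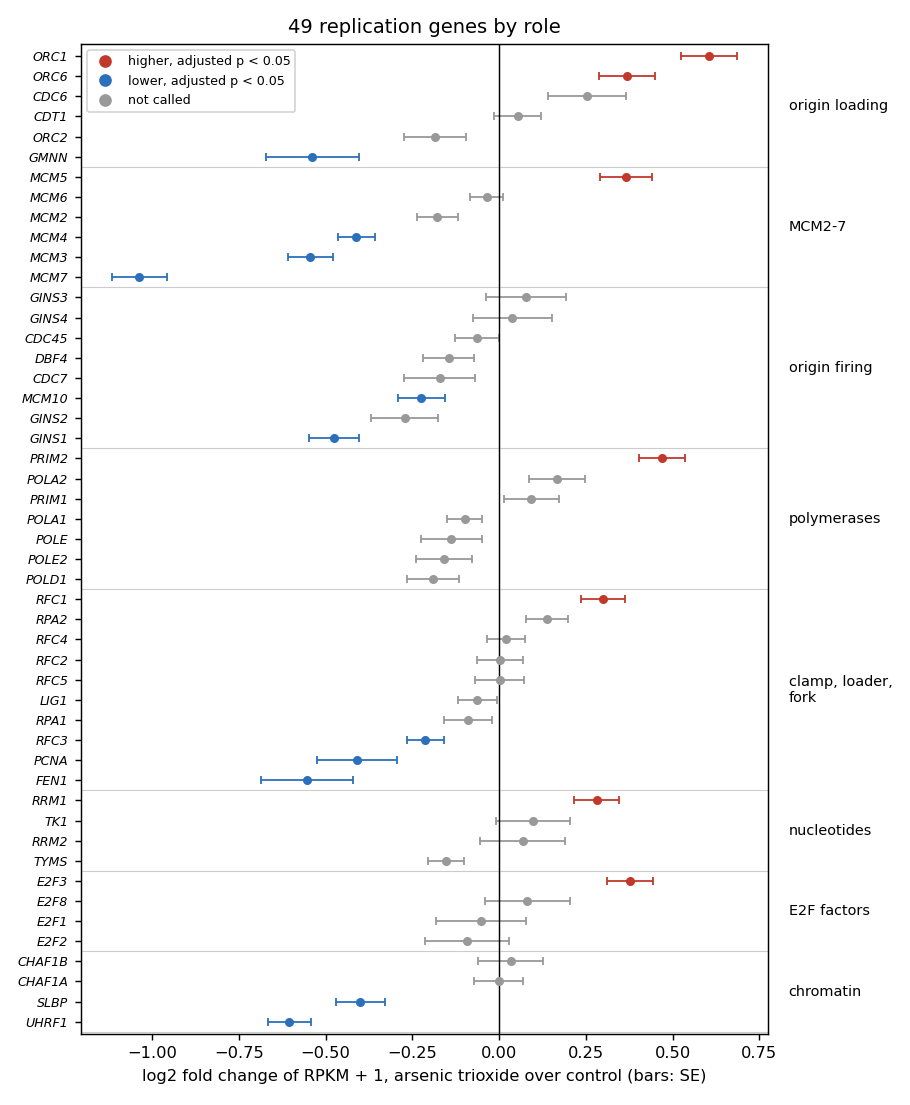
Log2 fold change of RPKM + 1, arsenic trioxide over control, for the 49 replication genes, ordered by role and within a role by size, with the standard error as bars (3 libraries per group). Red points passed the test upward (7 genes), blue points downward (11 genes) and grey points did not pass, and each role except the polymerases, nucleotide enzymes and E2F factors holds blue points.

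The promoters of these genes were set beside the changes, as windows from 250 bases before to 50 bases after each RefSeq start (GRCh38.p14). Windows were at hand for 44 of the 49 members, and those of E2F8, GINS4, MCM4, MCM5 and RPA2 were not analysed here, so the counts below leave out MCM4, which fell, and MCM5, which rose. An 8-letter form of the E2F motif (TTTCCCGC, TTTGGCGC, TTTCGCGC or TTTGCCGC, on either strand) was present in 23 of the 44 members, or 52.3%, against 3.99% of 27305 genes with a window and 7.04% of 7970 tested protein-coding genes. By the result of the expression test it was found in 7 of 10 members that fell, in 1 of 6 that rose and in 15 of 28 that did not pass. A 7-letter form, each of these words without its first T, lies within the longer one and was present in 79.5% of the members and 25.8% of the tested protein-coding genes, and in 7 of 10 that fell, 4 of 6 that rose and 24 of 28 that did not pass. The CCAAT box (CCAAT) was present in 59.1% of the members and 43.6% of the tested protein-coding genes, and the E-box CACGTG in 15.9% and 13.1%. Such matches describe letters in a window and do not show binding.

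The stretches of 30 bases around the 8-letter matches of the called genes are given here, with the match in capitals. The sequence is on the strand of the gene, 5′ to 3′ (RefSeq, GRCh38.p14). MCM7 and UHRF1, the members with the largest falls, carry such matches. FEN1, the next largest fall, and MCM10 and SLBP, which also fell, hold neither the 8-letter nor the 7-letter form in their windows. The last line shows ORC1, the largest rise, around a 7-letter match, since its window holds no 8-letter one. UHRF1 has 3 windows, and its 2 lines come from different ones. The 15 members that hold an 8-letter match and did not pass are not printed.
MCM7, chr7:100101566-100101595, minus strand: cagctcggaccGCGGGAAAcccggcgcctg
MCM7, chr7:100101388-100101417, minus strand: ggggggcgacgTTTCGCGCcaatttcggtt
UHRF1, chr19:4909476-4909505, plus strand: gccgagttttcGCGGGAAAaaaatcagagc
UHRF1, chr19:4909973-4910002, plus strand: cccgagcccgaTTTCGCGCgccctgagttc
MCM3, chr6:52284898-52284927, minus strand: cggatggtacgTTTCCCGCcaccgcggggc
MCM3, chr6:52284728-52284757, minus strand: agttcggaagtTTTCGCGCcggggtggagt
GMNN, chr6:24775322-24775351, plus strand: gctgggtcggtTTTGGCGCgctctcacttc
GINS1, chr20:25407667-25407696, plus strand: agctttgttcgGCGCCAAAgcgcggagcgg
PCNA, chr20:5126663-5126692, minus strand: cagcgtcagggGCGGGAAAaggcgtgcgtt
RFC3, chr13:33818083-33818112, plus strand: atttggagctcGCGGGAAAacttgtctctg
E2F3, chr6:20401815-20401844, plus strand: ttgaaaagccgGCGGGAAAtccgagtttcg
ORC1, chr1:52404427-52404456, minus strand: ggccacgccgaTTGGCGCgaagttttcttt

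In these lines GCGGGAAA is the reverse complement of TTTCCCGC and GCGCCAAA that of TTTGGCGC. The match of GINS1 begins 6 bases after the start, and those of MCM7 begin 187 and 9 bases before it. To show the setting of a site in a gene that fell and a gene that rose, the 250 bases before a start are printed for UHRF1 (chr19:4909894-4910143, plus strand) and E2F3 (chr6:20401629-20401878, plus strand), both free of exons in the GENCODE 29 annotation, with 7-letter matches in capitals.
UHRF1: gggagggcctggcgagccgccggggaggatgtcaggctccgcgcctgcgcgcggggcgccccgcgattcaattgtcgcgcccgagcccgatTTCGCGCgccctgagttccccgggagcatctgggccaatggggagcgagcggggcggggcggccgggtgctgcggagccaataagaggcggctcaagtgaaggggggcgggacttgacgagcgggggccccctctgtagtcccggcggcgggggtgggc
E2F3: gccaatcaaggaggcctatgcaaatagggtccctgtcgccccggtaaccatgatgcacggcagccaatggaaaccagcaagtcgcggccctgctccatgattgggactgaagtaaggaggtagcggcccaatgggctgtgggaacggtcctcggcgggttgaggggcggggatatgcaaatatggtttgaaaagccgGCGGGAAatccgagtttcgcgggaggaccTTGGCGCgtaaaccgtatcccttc

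The counts by role from here on stand beside 12.0% higher and 13.4% lower over all tested genes. Within the members' range of mean level these shares were 14.7% and 20.0%. Among the 6 genes of origin recognition and helicase loading, 2 rose, 1 fell and 3 did not pass (median log2 fold change 0.15). ORC1, an ATPase that marks origins in G1 (chromosome 1, 52372829 to 52404459, GRCh38, GENCODE 29), was at 63.1, 54.0 and 62.4 RPKM in treated replicates 1, 2 and 3, against 41.7, 36.6 and 38.6 RPKM in control replicates 1, 2 and 3. Every treated library was above every control library, and on the log2 scale ORC1 differed by 0.60 ± 0.08 SE (limma-trend adjusted p = 0.00319). ORC6, the smallest subunit of the complex, was at 21.5, 20.4 and 23.0 RPKM in treated libraries, against 18.1, 16.1 and 15.4 RPKM in control libraries (0.37, adjusted p = 0.0174). The groups of ORC6 did not overlap, but ORC6 no longer passed when control replicate 2 (adjusted p = 0.0574), control replicate 3 (0.059) or treated replicate 1 (0.0516) was left out. ORC2, another subunit of the complex, was at 13.9 to 15.9 RPKM in treated libraries and 15.4 to 18.5 RPKM in control libraries (-0.18, adjusted p = 0.179).

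The loaders and their inhibitor followed different courses. CDC6, the ATPase that joins ORC to load the ring, was at 26.1, 24.8 and 31.7 RPKM in treated libraries, against 24.4, 20.2 and 24.0 RPKM in control libraries. Its groups did not overlap, yet the difference did not pass (0.25 ± 0.11 SE, limma-trend adjusted p = 0.142). CDT1, the partner of CDC6 in loading, was at 36.5, 36.8 and 32.8 RPKM in treated libraries, against 33.3, 35.9 and 32.9 RPKM in control libraries (0.05 ± 0.07 SE, adjusted p = 0.599), and its groups overlapped. GMNN encodes geminin, which binds CDT1 and blocks reloading (chromosome 6, 24774931 to 24786099). It was at 18.1, 19.6 and 25.8 RPKM in treated libraries, against 33.6, 28.1 and 31.1 RPKM in control libraries (-0.54 ± 0.13 SE, adjusted p = 0.0266). All treated libraries lay below all controls, with replicate 3 nearest to them, and GMNN no longer passed when control replicate 1 (adjusted p = 0.078), control replicate 3 (0.0714), treated replicate 1 (0.0737) or treated replicate 2 (0.0801) was left out. The ratio of CDT1 to GMNN within a library was 2.02, 1.87 and 1.27 in treated replicates 1, 2 and 3, against 0.991, 1.28 and 1.06 in control replicates (exact two-sided permutation test, p = 0.2, with 0.1 the smallest p that 3 against 3 allows). This ratio and those below were chosen after the values were seen.

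The 6 subunits of the helicase ring act in a complex that holds each of them once, and their transcripts did not move together. Of MCM2 to MCM7, 3 fell, 1 rose and 2 did not pass (median log2 fold change -0.29). MCM7 (chromosome 7, 100092728 to 100101940) was at 62.4, 51.4 and 60.1 RPKM in treated libraries, against 119, 123 and 117 RPKM in control libraries. The highest treated library lay far below the lowest control. On the log2 scale MCM7 differed by -1.04 ± 0.08 SE (limma-trend adjusted p = 0.000558), the largest change in size among the 49 genes. Exons of AP4M1 on the other strand cover 8.94% of the exon bases of MCM7, and the kit does not mark strand, so reads from that stretch cannot be told apart.

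MCM3 (chromosome 6, 52264009 to 52284881) was at 93.2, 82.1 and 91.7 RPKM in treated libraries, against 131, 134 and 126 RPKM in control libraries (-0.54 ± 0.06 SE, limma-trend adjusted p = 0.00224). MCM4 was at 58.6, 55.9 and 61.9 RPKM in treated libraries, against 78.1, 78.4 and 79.0 RPKM in control libraries (-0.41 ± 0.05 SE, adjusted p = 0.00311). Both stood apart from their controls in every library. MCM5 (chromosome 22, 35400063 to 35425430) went the other way, at 32.3, 27.7 and 28.1 RPKM in treated libraries, against 21.5, 23.2 and 22.9 RPKM in control libraries (0.37 ± 0.08 SE, adjusted p = 0.0143). MCM6 was at 89.2, 91.6 and 88.4 RPKM in treated libraries, against 89.8, 92.7 and 93.4 RPKM in control libraries, which overlapped (-0.04 ± 0.05 SE, adjusted p = 0.622). MCM2 was at 74.0, 66.9 and 71.8 RPKM in treated libraries, against 80.3, 82.9 and 77.7 RPKM in control libraries (-0.18 ± 0.06 SE, adjusted p = 0.064). The groups of MCM2 did not overlap, and it was called with limma-voom on recovered reads (0.0474). The calls of MCM3, MCM4, MCM5 and MCM7 held in all 13 alternatives tried.

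**Figure D2:**
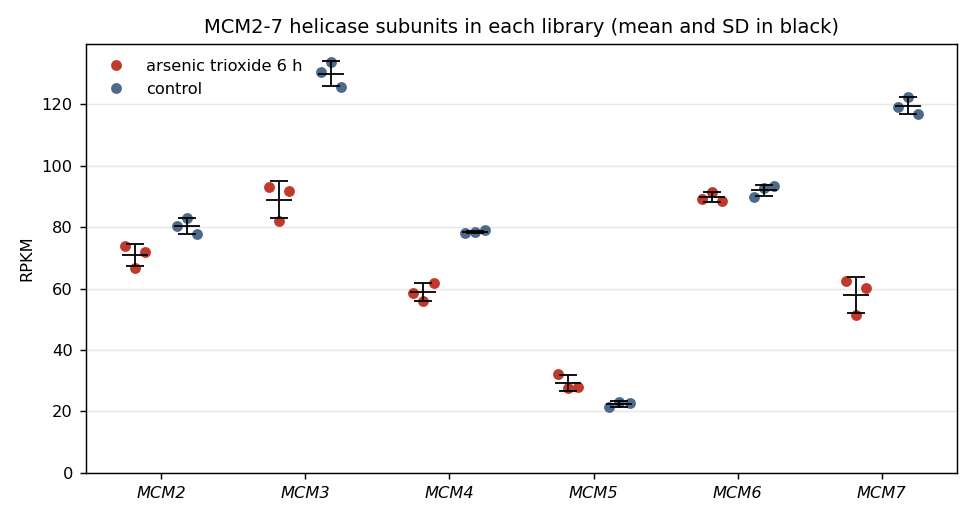
RPKM of the helicase subunits MCM2 to MCM7 in each library, with arsenic trioxide in red to the left of control in blue, and the mean and SD of 3 libraries in black. MCM7 sits at 51.4 to 62.4 RPKM in treated libraries and 117 to 123 RPKM in control libraries, MCM6 overlaps, and MCM5 is higher in every treated library.

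The order of the subunits by RPKM therefore differed between the groups. In treated libraries MCM3 and MCM6 were highest, in either order, followed by MCM2, with MCM7 next to MCM4 below it and MCM5 lowest. In the 3 control libraries MCM3 was highest, then MCM7, then MCM6, and MCM5 was lowest, with MCM2 and MCM4 changing places between them. MCM3 and MCM6, and MCM7 and MCM4, in treated libraries, and MCM2 and MCM4 in control libraries, did not keep 1 order across replicates. The ratio of MCM7 to MCM6 was 0.699, 0.561 and 0.68 in treated libraries, against 1.33, 1.32 and 1.25 in control libraries (exact two-sided permutation p = 0.1, the smallest possible). The ratio of the highest to the lowest subunit was 2.88 to 3.31 in treated libraries and 5.5 to 6.09 in control libraries (p = 0.1 in the same exact test), and the summed RPKM of the 6 subunits was 396 ± 18.0 and 523 ± 9.33 (SD, n = 3 each, exact p = 0.1). Levels between genes rest on the length of all annotated exons, 7.34 kb for MCM5 and 3.65 kb for MCM3, so the place of MCM5 in this order depends on that annotation, while the changes between groups do not.

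Of the 8 genes that activate the helicase and fire origins, 2 fell, 0 rose and 6 did not pass (median log2 fold change -0.16). GINS1, a subunit of the GINS complex that joins MCM and CDC45 (chromosome 20, 25407727 to 25452628), was at 17.1, 15.8 and 18.7 RPKM in treated libraries, against 24.2, 24.6 and 24.0 RPKM in control libraries (-0.48 ± 0.07 SE, limma-trend adjusted p = 0.00498). Its partners in the complex did not pass. GINS2 was at 15.1, 14.8 and 18.2 RPKM in treated libraries, against 21.1, 18.8 and 18.6 RPKM in control libraries (-0.27 ± 0.10 SE, adjusted p = 0.0802), and it was called without arsenic trioxide replicate 3 (0.0274), the library nearest to the controls. GINS3 was at 7.19 ± 0.746 RPKM in treated cells and 6.76 ± 0.764 RPKM in control cells, and GINS4 at 7.36 ± 1.09 and 7.10 ± 0.378 RPKM (SD, n = 3 each), with 23.6% of the exon bases of GINS4 shared with other annotated genes.

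MCM10, which helps the helicase to start, was at 16.9 to 18.8 RPKM in treated libraries and 20.1 to 21.7 RPKM in control libraries (-0.22, limma-trend adjusted p = 0.0497). This value lay at the threshold, and MCM10 no longer passed in 9 of 13 alternatives. These include leaving out control replicate 1 (adjusted p = 0.0928), control replicate 2 (0.0908), control replicate 3 (0.153), treated replicate 1 (0.136) or treated replicate 2 (0.125). CDC45, which completes the moving helicase, was at 18.03 to 18.86 RPKM in treated libraries and 18.02 to 19.98 RPKM in control libraries (-0.06, adjusted p = 0.497). The kinase CDC7 (-0.17, adjusted p = 0.257) and its activator DBF4 (-0.15, adjusted p = 0.189) overlapped between the groups.

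Of the 7 polymerase and primase genes, 1 rose, 0 fell and 6 did not pass (median log2 fold change -0.10). PRIM2, the large subunit of the primase that lays down RNA primers (chromosome 6, 57314805 to 57646849), was at 17.4, 18.7 and 18.5 RPKM in treated libraries, against 12.4, 12.7 and 13.5 RPKM in control libraries. The groups were well apart, and on the log2 scale PRIM2 differed by 0.47 ± 0.07 SE (limma-trend adjusted p = 0.00382). PRIM1, the catalytic primase subunit, was at 26.3 ± 1.59 RPKM in treated cells and 24.6 ± 2.02 RPKM in control cells (0.09, adjusted p = 0.43). Exons of HSD17B6 and NACA cover 6.77% of the exon bases of PRIM1. The ratio of PRIM2 to PRIM1 was 0.632 to 0.755 in treated libraries and 0.497 to 0.555 in control libraries (exact two-sided permutation p = 0.1, the smallest possible). The 2 subunits of polymerase alpha, POLA1 (-0.10) and POLA2 (0.17), the catalytic subunit of polymerase delta, POLD1 (-0.19), and the subunits of polymerase epsilon, POLE (-0.14) and POLE2 (-0.16), had adjusted p between 0.11 and 0.289. The groups of POLA1 and POLD1 did not overlap, with both lower in treated libraries.

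Of the 10 genes of the clamp, clamp loader, single-strand binding and Okazaki fragment joining, 1 rose, 3 fell and 6 did not pass (median log2 fold change -0.03). FEN1, the flap nuclease that trims Okazaki fragments (chromosome 11, 61792637 to 61797244), was at 33.9, 32.4 and 46.6 RPKM in treated libraries, against 57.8, 52.4 and 54.9 RPKM in control libraries (-0.55 ± 0.13 SE, limma-trend adjusted p = 0.0238). PCNA, the sliding clamp (chromosome 20, 5114953 to 5126626), was at 135, 119 and 164 RPKM in treated libraries, against 189, 188 and 174 RPKM in control libraries (-0.41 ± 0.12 SE, adjusted p = 0.04). In both genes all treated libraries were below all controls and treated replicate 3 was the closest to them. FEN1 no longer passed when control replicate 1 (adjusted p = 0.0695), control replicate 2 (0.0532), control replicate 3 (0.0631), treated replicate 1 (0.0745) or treated replicate 2 (0.0668) was left out. PCNA no longer passed in 8 of 13 alternatives, including those without control replicate 1 (0.1), control replicate 2 (0.107), control replicate 3 (0.0697), treated replicate 1 (0.104) or treated replicate 2 (0.0896). Exons of TMEM258 and FADS2 cover 8.68% of the exon bases of FEN1. FEN1, PCNA and RFC3, and RRM2, TYMS and E2F3 below, have annotated processed pseudogenes, so how reads were divided between the copies is uncertain. LIG1, the ligase that seals Okazaki fragments, was at 29.8 ± 1.35 RPKM in treated cells and 31.1 ± 0.508 RPKM in control cells (-0.06, adjusted p = 0.447).

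The clamp loader is a complex of a large subunit, RFC1, and 4 smaller ones. RFC1 was at 45.2, 47.8 and 43.2 RPKM in treated libraries, against 34.5, 37.4 and 38.2 RPKM in control libraries (0.30 ± 0.06 SE, limma-trend adjusted p = 0.0162), and no longer passed without treated replicate 2 (0.0516). RFC3 was at 45.8, 46.8 and 43.0 RPKM in treated libraries, against 53.6, 52.7 and 51.2 RPKM in control libraries (-0.21 ± 0.05 SE, adjusted p = 0.0284). RFC3 no longer passed in 7 of 13 alternatives, among them those without control replicate 1 (0.0762), control replicate 2 (0.0855), control replicate 3 (0.0625), treated replicate 1 (0.0667) or treated replicate 3 (0.0667). RFC2, RFC4 and RFC5 had log2 fold changes between 0.0021 and 0.02 with overlapping groups. Exons of other genes cover 10.6% of the exon bases of RFC5. The ratio of RFC1 to RFC3 was 0.987 to 1.023 in treated libraries and 0.644 to 0.747 in control libraries (exact two-sided permutation p = 0.1). RPA1 (-0.09, adjusted p = 0.373) and RPA2 (0.14, adjusted p = 0.136), which coat single strands, did not pass, although RPA2 was higher in every treated library.

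Of the 4 genes of deoxynucleotide supply, RRM1 rose and 3 did not pass (median log2 fold change 0.08). RRM1, the large subunit of ribonucleotide reductase (chromosome 11, 4094707 to 4138876), was at 60.2, 55.1 and 54.9 RPKM in treated libraries, against 43.5, 48.0 and 48.0 RPKM in control libraries (0.28 ± 0.06 SE, limma-trend adjusted p = 0.0209). Its groups did not overlap, but RRM1 no longer passed without control replicate 1 (0.0536) or treated replicate 1 (0.0637). RRM2, the small subunit whose level peaks in S phase, was at 63.6, 62.1 and 75.4 RPKM in treated libraries, against 74.7, 55.1 and 62.8 RPKM in control libraries. Its spread within groups was wider than the difference between them (0.07 ± 0.12 SE, adjusted p = 0.722). RRM1 over RRM2 within a library was 0.729 to 0.946 in treated libraries and 0.583 to 0.871 in control libraries, which overlapped (exact two-sided permutation p = 0.4). TYMS, the thymidylate synthase, was at 23.9, 24.4 and 23.3 RPKM in treated libraries, against 26.1, 26.9 and 26.9 RPKM in control libraries (-0.15 ± 0.05 SE, adjusted p = 0.0711). All treated libraries of TYMS were lower, but exons of ENOSF1 and TYMSOS on the other strand cover 46.6% of its exon bases. TK1, the thymidine kinase of the salvage path, was at 12.6 ± 1.75 RPKM in treated cells and 11.6 ± 0.518 RPKM in control cells (0.10, adjusted p = 0.541).

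Among the 4 E2F factors, E2F3 rose and E2F1, E2F2 and E2F8 did not pass (median log2 fold change 0.01). E2F3, an activator of S phase genes (chromosome 6, 20401906 to 20493715), was at 43.8, 41.1 and 45.2 RPKM in treated libraries, against 35.5, 31.7 and 32.4 RPKM in control libraries (0.38 ± 0.07 SE, limma-trend adjusted p = 0.00812). The lowest treated library exceeded the highest control, and the call held in all 13 alternatives. E2F1, a related activator, was at 26.1, 19.4 and 27.9 RPKM in treated libraries, against 26.4, 25.1 and 23.9 RPKM in control libraries (-0.05 ± 0.13 SE, adjusted p = 0.794). E2F2, the remaining activator, was at 8.98, 7.56 and 10.2 RPKM in treated libraries, against 8.92, 10.5 and 9.17 RPKM in control libraries (-0.09 ± 0.12 SE, adjusted p = 0.614). E2F8, an atypical member that represses E2F targets, was at 15.2, 15.1 and 20.7 RPKM in treated libraries, against 15.2, 15.9 and 16.5 RPKM in control libraries (0.08 ± 0.12 SE, adjusted p = 0.661). For E2F1 and E2F8 the treated libraries reached beyond the control range on both sides, and those of E2F2 overlapped it and reached below it. E2F3 was the highest of the 4 in every library, E2F1 was second and E2F2 lowest.

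Of the 4 chromatin genes, 2 fell and 2 did not pass (median log2 fold change -0.20). UHRF1, which reads newly copied, half-methylated DNA and brings the maintenance methyltransferase to it (chromosome 19, 4903080 to 4962154), was at 20.2, 20.1 and 22.2 RPKM in treated libraries, against 31.1, 32.3 and 33.0 RPKM in control libraries. The replicates lay close together and the groups far apart (-0.60 ± 0.06 SE, limma-trend adjusted p = 0.00139). SLBP, which binds the stem-loop of histone messenger RNA (chromosome 4, 1692800 to 1712555), was at 69.3, 72.0 and 78.1 RPKM in treated libraries, against 103, 96.1 and 91.2 RPKM in control libraries (-0.40 ± 0.07 SE, adjusted p = 0.00815). Both calls held in all 13 alternatives. The subunits of chromatin assembly factor 1 overlapped between the groups, with CHAF1A at 20.1 ± 1.57 RPKM in treated cells and 20.1 ± 0.371 RPKM in control cells, and CHAF1B at 8.52 ± 0.679 and 8.30 ± 0.639 RPKM (SD, n = 3 each).

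**Figure D3:**
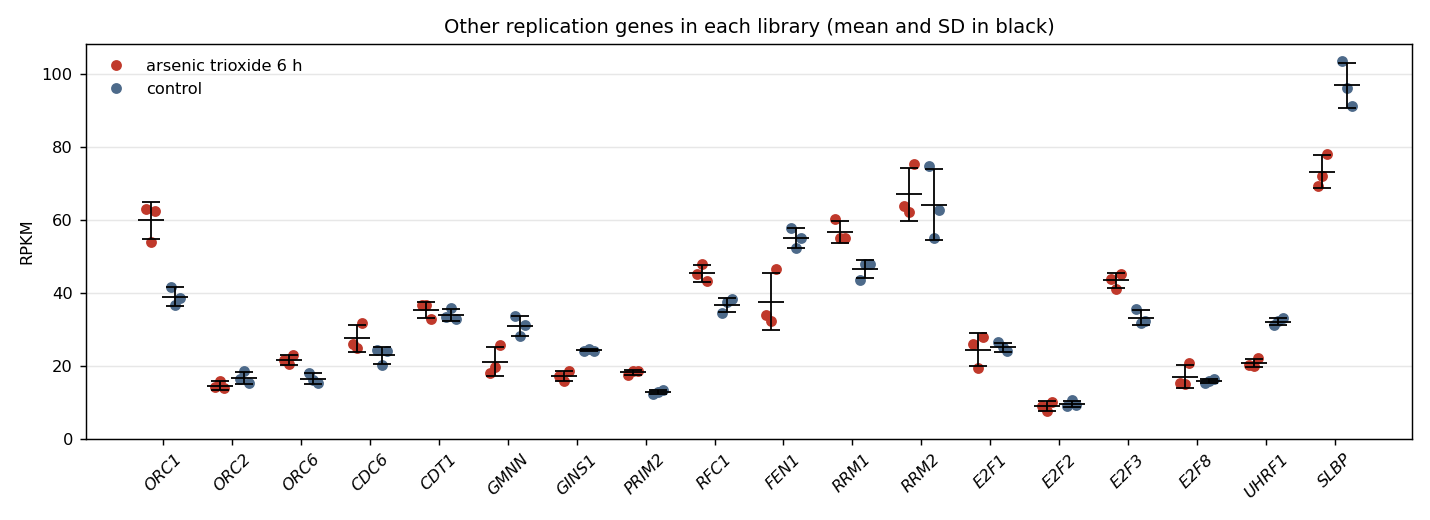
RPKM of 18 further replication genes in each library, with arsenic trioxide in red to the left of control in blue, and the mean and SD of 3 libraries in black. ORC1, ORC6, CDC6, PRIM2, RFC1, RRM1 and E2F3 are higher in every treated library, GMNN, GINS1, FEN1, UHRF1 and SLBP are lower in every treated library, and ORC2, CDT1, RRM2, E2F1, E2F2 and E2F8 overlap.

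Calls that held in all 13 alternatives numbered 10 of 18, namely those of ORC1, MCM3, MCM4, MCM5, MCM7, GINS1, PRIM2, E2F3, UHRF1 and SLBP. The groups did not overlap in 25 of the 49 members, 9 higher and 16 lower, where they did not overlap in 44.6% of all tested genes. Treated replicate 2 was the lowest of its group in 28 of 49 members, 57.1%, against 33.1% of all tested genes. Treated replicate 3 was the highest of its group in 24 of 49, 49%, against 41.1% of all tested genes. Without treated replicate 3 the members called were 7 higher and 11 lower, and without treated replicate 1 they were 5 higher and 6 lower. The count of members that fell was 6 without control replicate 1 or 3, and 7 without control replicate 2 or treated replicate 2. The authors' deposited table gives an adjusted p under 0.05 for 18 members, 7 higher and 11 lower, and for 29.3% of the genes tested here. Of these 17 were also called here with the same sign, and the authors' deposited table adds GINS2 (adjusted p = 0.044) and leaves out RFC3 (0.0586).

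Beyond the 49, 67 other genes of the pathway were described in 7 lists, of which 65 were tested. POLD4, below the filter of 1 RPKM, and E2F7, not analysed here, were left out. Of the 65, 7 rose and 16 fell, 35.4% in all (median log2 fold change -0.08), against 25.4% of all tested genes, with 12.0% higher and 13.4% lower. These genes also lay above most others in level, with a median of 18.9 RPKM. Their range of 1.39 to 102 RPKM starts at TK2 and holds 15178 of the 16803 tested genes, so it hardly matches level. Of those 15178 genes 26.5% were called. Within the members' range of 6.97 to 162 RPKM, which holds 7299 tested genes, 34.7% were called. With upper quartile scaling the split of the 65 was 9 higher and 12 lower. The number that fell was 8 without control replicate 1 and 9 without control replicate 2 or 3 or treated replicate 1 or 2. Of 8 tested genes of other E2F, DP and RB proteins, 3 were higher and 3 lower. Only TFDP1, E2F4 and TFDP2 kept their calls in all 13 alternatives. TFDP1, the main DNA-binding partner of E2F proteins, fell to 76.5 ± 5.14 RPKM in treated cells, against 121 ± 4.67 RPKM in control cells (-0.65, limma-trend adjusted p = 0.0013), and E2F4, a repressor with pocket proteins, fell to 36.0 ± 3.63 RPKM in treated cells, against 52.6 ± 4.49 RPKM in control cells (-0.54, adjusted p = 0.00815). TFDP2, a second partner, rose to 8.94 ± 0.112 RPKM in treated cells, against 6.23 ± 0.315 RPKM in control cells (0.46, adjusted p = 0.00767). The other 3 calls, named here after their values were seen, were lost in most fits with 1 library left out. RBL1 (0.22, adjusted p = 0.0407) did not pass without any 1 of the 6 libraries (0.0638 to 0.107). E2F6 (0.50, adjusted p = 0.0359) still passed without control replicate 1, but not without any of the other 5 libraries (0.0657 to 0.0974). E2F5 (-0.46, adjusted p = 0.0279) still passed without treated replicate 2, but not without any of the other 5 (0.0538 to 0.0881), and 18.6% of its exon bases are shared with other genes.

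Among S phase cyclins, kinases and ubiquitin ligase parts, 4 of 12 fell and 0 rose, 33.3% in all. Over all tested genes 25.4% were called, with 12.0% higher and 13.4% lower. Within the members' range of mean level 34.7% were called, so the share of this list was near that. CDK2, the kinase of S phase entry, was at 8.81 ± 0.382 RPKM in treated cells and 13.5 ± 0.467 RPKM in control cells (-0.56, limma-trend adjusted p = 0.00264). SKP2, a ligase subunit that removes the inhibitor p27, was at 64.9 ± 3.86 RPKM in treated cells and 82.3 ± 2.28 RPKM in control cells (-0.34, adjusted p = 0.00866). CCNA2, the S phase cyclin A, was at 69.9 ± 2.38 RPKM in treated cells and 86.9 ± 4.55 RPKM in control cells (-0.31, adjusted p = 0.0106). Cyclin E, which acts with CDK2, is encoded by CCNE1 (-0.23, adjusted p = 0.111) and CCNE2 (0.20, adjusted p = 0.281), which did not pass and are named after their values were seen. Exons of other genes cover 37.1% of the exon bases of CCNE2 and 9.08% of those of CCNA2. The remaining gene of the 4 that fell, CUL4A, a ligase scaffold (-0.26, adjusted p = 0.0193), no longer passed without control replicate 1 (0.0556), control replicate 2 (0.0593) or control replicate 3 (0.0534).

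The counts in the short lists that follow stand beside 12.0% higher and 13.4% lower over all tested genes. Within the members' range of mean level these shares were 14.7% and 20.0%. Of 6 other origin and MCM genes, ORC3, a subunit of the origin recognition complex, rose to 30.3 ± 1.90 RPKM in treated cells, against 17.9 ± 1.31 RPKM in control cells (0.72, limma-trend adjusted p = 0.00153). In the same list MCMBP, which binds MCM subunits, fell (-0.41, adjusted p = 0.0249), but no longer passed without control replicate 1 (0.0531), treated replicate 1 (0.0734) or treated replicate 2 (0.075). Of 10 other firing and fork protection genes 2 rose and 2 fell. DBF4B, a second activator of CDC7, rose (0.60, adjusted p = 0.00256), as did DONSON, which helps to build the helicase (0.45, adjusted p = 0.00532), and RECQL4 fell (-0.44, adjusted p = 0.0205), but no longer passed without treated replicate 1 (0.0611) or treated replicate 2 (0.0622). TOPBP1, the other gene that fell (-0.21, adjusted p = 0.0226), still passed without treated replicate 3, but not without any of the other 5 libraries (0.0539 to 0.0822), so 0 of the 10 fell without treated replicate 1 or 2. Of 8 other deoxynucleotide enzymes 4 fell and 0 rose, led by DCTPP1 (-0.68, adjusted p = 0.0073) and DTYMK, the thymidylate kinase (-0.39, adjusted p = 0.00942). Exons of ZNF771 cover 42.1% of the exon bases of DCTPP1. The call of SAMHD1, which breaks down deoxynucleotides, was close to the threshold (-0.30, adjusted p = 0.0322) and did not hold without any 1 of the 6 libraries (0.052 to 0.0899). The same was so of DUT, which breaks down dUTP (-0.20, adjusted p = 0.0428, and 0.0682 to 0.134 without a library), so 2 of the 8 fell whichever library was left out. RRM2B, a small subunit of ribonucleotide reductase, did not pass (0.32, adjusted p = 0.0587), but was higher without treated replicate 3 (0.0272), with upper quartile scaling (0.0444) and with limma-voom on recovered reads (0.0227). Of 14 tested polymerase subunits and fork enzymes 2 fell and 0 rose, and both calls, POLE3 (-0.18, adjusted p = 0.0456) and RNASEH2C (-0.27, adjusted p = 0.036), were lost without any 1 of the 6 libraries (adjusted p 0.0819 to 0.123 and 0.0552 to 0.113). Exons of other genes cover 28.2% of the exon bases of RNASEH2C, 14.5% of DUT, 10.3% of SAMHD1 and 8.74% of DONSON. Of 7 other chromatin genes only ASF1A, a histone chaperone, passed, and it rose (0.51, adjusted p = 0.00428).

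**Figure D4:**
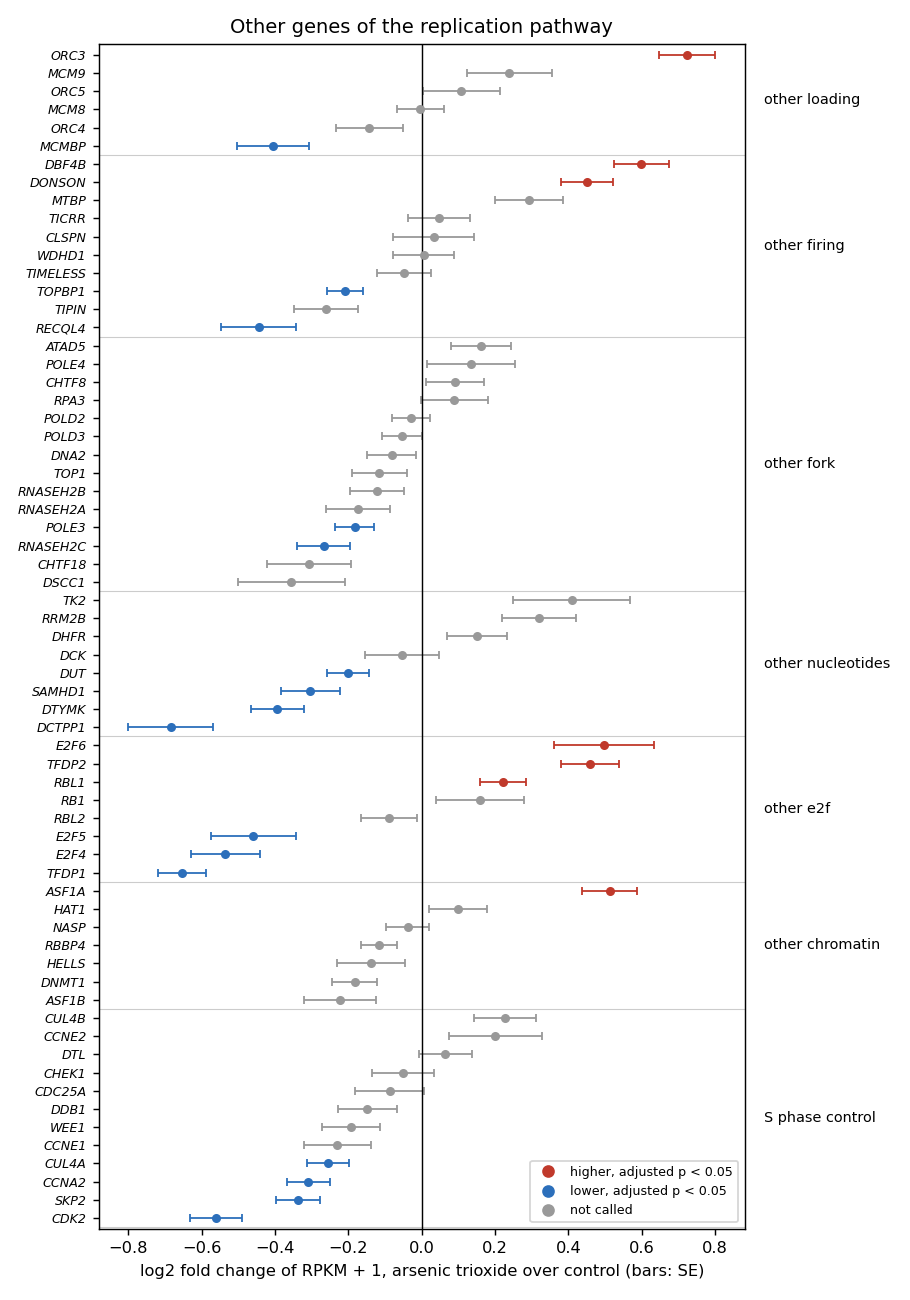
Log2 fold change of RPKM + 1, arsenic trioxide over control, for the 65 tested pathway genes outside the 49, by list, with the standard error as bars (3 libraries per group). Red points rose (7 genes), blue points fell (16 genes) and grey points did not pass, with ORC3 highest at 0.72 and DCTPP1 lowest at -0.68.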

How the data were processed

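RNA of 6 NB4 libraries, 3 per group, was made into libraries with the NEBNext Ultra kit, per the labels' protocols. This kit does not record the strand. HISAT2 2.1.0, HTSeq, DESeq2 and hg38 are named in the submitters' processing notes, without parameters, and duplicates were removed, per the file headers. The deposited table holds RPKM per gene, and beside it the authors' mean normalized signal, log2 fold change with its error, test score, p-value and adjusted p-value, which were not tested here.

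RPKM was turned back into whole reads with GENCODE 29 exon lengths and, where these did not give whole numbers, with lengths settled from the deposited mean. All values were then whole within 0.01 reads for 100.0% of genes. Chi-square per degree of freedom between libraries of a group was 5.48 to 13.5, above sampling noise, and each library was kept. For genes whose mean reached 1 RPKM, log2 of RPKM + 1 was compared in limma 3.58.1 under R 4.3.3 (trend mode, treatment as the only term), with Benjamini-Hochberg adjustment over all 16803 genes, and called under 0.05. The procedure was tested on simulated data. The 13 alternatives were a pseudocount of 0.1 or 5, no filter, median-ratio or upper quartile scaling, limma-voom on the recovered reads, a replicate block, and leaving out each of the 6 libraries. The lowest summed count of a listed gene was 21 reads.

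Values in every library are given for CDC6, CDT1, GMNN, PCNA, RRM2, TYMS, SLBP, the E2F factors and MCM2 to MCM7, and per role for the called member with the smallest p and that with the largest change. Others were added after their values were seen. Of other pathway genes, the plan was to name up to 3 called genes per list with the smallest p. Further called genes and uncalled ones were added after their values were seen. The members and lists were chosen with earlier results of these data known. SDs cover the spread between the 3 libraries of a group. Standard errors come from the limma fit, whose variance is pooled over both groups and moderated toward a trend over all tested genes. The floor of 3 reads covers counting error only.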

Additional observations from a re-analysis of the deposited data

How the results depend on the processing

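No member changed sign among calls under the 13 alternatives. With upper quartile scaling the median log2 fold change was -0.020 over the 49 members and -0.039 over the other pathway genes, and that of all tested genes was 0.034. The number of origin firing genes that fell was 1 with a pseudocount of 0.1, with no filter, with upper quartile scaling and with the replicate block. The number of clamp and fork genes that fell was 1 with upper quartile scaling and 1 with the replicate block. Limma-voom on recovered reads called 11 of the other pathway genes higher. The labels do not say whether the replicate numbers pair the libraries. The correlation of same-numbered deviations from the group means was -0.085, 0.148 and -0.083 for numbers 1, 2 and 3. For unlike numbers it was -0.158 to 0.221. With 3 libraries per group these values cannot decide whether libraries were paired. With the replicate block 6 members were higher and 8 lower, 0 nucleotide genes were higher, and 9 of the other pathway genes were lower. The cause of these moves was not tested.

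Leaving out each library in turn gave 1302 to 1511 higher and 1419 to 1906 lower genes over all genes, 5 to 7 higher and 6 to 11 lower members, and a members' median of -0.084 to -0.027. For the other pathway genes it gave 5 to 6 higher, 8 to 11 lower and a median of -0.094 to -0.056. By role it gave 1 to 2 higher and 0 to 1 lower loading genes, 1 to 3 lower firing genes, 0 to 1 higher and 0 to 2 lower fork genes, and 0 to 1 higher nucleotide genes. Counts for the helicase ring, polymerases, E2F factors and chromatin genes were the same without any 1 library. With 3 libraries per group and 1 left out, fewer degrees of freedom remain. No depth limit was reached, since each member held at least 416 reads in every library.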
